A study of Mus musculus with 13 samples.

Results

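The 44 genes described here encode the enzymes that copy DNA and those that supply its deoxynucleotides, taken by symbol from a list of 44 names, out of 43430 genes in the deposited count table. The rule uses no measured value, but the list was drawn up with earlier results of these data known. Each symbol matched 1 Ensembl gene, and all 44 had enough reads to be among the 11906 genes tested. The cells were alveolar macrophages, phagocytes that live in the lung's airspaces, sorted by flow cytometry from male C57Bl/6 mice 10 weeks old. The first group drank metformin (100 mg/kg/day, begun 24 h ahead) and had 10 µg of standardized particulate matter from polluted air, PM, put into the trachea (n = 3). The second group had vehicle water and the same PM (n = 3), the third had metformin and phosphate-buffered saline, PBS (n = 3), and the fourth had vehicle and PBS (n = 4). Cells of all groups were collected 24 h after instillation, so every animal had been instilled. Metformin is a biguanide used against type 2 diabetes. Each library is named by its group and its title's number. The labels call the libraries of a group biological replicates. They do not say whether cages, litters or processing days were shared.

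A cell that prepares to divide licenses its origins by loading a ring of MCM proteins, then fires them by adding Cdc45 and the GINS complex, which turns the ring into a moving helicase. DNA polymerases copy the strands behind it, held on the template by the sliding clamp Pcna, while ribonucleotide reductase and thymidylate synthase make the deoxynucleotides. Most of these genes are transcribed at the passage from G1 to S phase under E2F transcription factors, so in a tissue their RNA is often read together with that of cycling cells. Alveolar macrophages are known to maintain themselves in the lung by local division.

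Gene counts per library totalled, in megacounts (M), 6.515 to 8.101 M with metformin and PM, 6.182 to 7.107 M with vehicle and PM, 6.17 to 6.434 M with metformin and PBS, and 5.567 to 6.362 M with vehicle and PBS. Levels are given as CPM, a gene's counts scaled to the total of its library. Alveolar macrophage markers (16 genes, all detected) summed to between 24390 and 30330 CPM in every library, so the labelled cell type was present throughout. Chil3 alone averaged 14680 to 17320 CPM per group within these sums. All 10 markers of T and NK lymphocytes, cells that can cycle, lay under 1 CPM in every library, and together they made 0.325 to 1.37 CPM. The neutrophil list had 8 of 10 markers under 1 CPM, with Ly6g, Camp and Retnlg at 0. Monocyte and monocyte-derived macrophage markers summed to 591 to 622 CPM with metformin and PM, 559 to 661 CPM with vehicle and PM, 573 to 606 CPM with metformin and PBS, and 466 to 524 CPM with vehicle and PBS. Within these sums Csf1r alone averaged 308.6 to 408.1 CPM per group. Taken per gene, the mean log2 level of the 9 tested markers, relative to all 13 libraries, was 0.425, 0.384, -0.329 and -0.36 in the same group order. That mean does not describe every marker. For PM against PBS, 5 of the 9 had a positive log2 fold change and 4 a negative one, on vehicle and on metformin alike. The median was 0.2 on vehicle and 0.151 on metformin, while the highest, that of Mmp14, was 4.71 and 4.42. In these libraries of many cells, fewer cycling cells and less RNA of these genes per cell cannot be told apart.

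The promoters of 5 members are shown because these members are the ones lower with metformin after PBS in every setting tried, and because most members carry the same short E2F-type element. Each is 300 bases from RefSeq (GRCm38.p6, the same assembly as mm10), 250 bases before the annotated start to 50 bases after it, given 5′ to 3′ on the gene's strand. Capitals mark each match, on either strand, to TTCCCGC, to its variant TTGGCGC, to the variant TTCGCGC or to the variant TTGCCGC, which are forms of the E2F core. Overlapping matches on opposite strands were counted separately.
Clspn, chr4:126556730-126557029, plus strand: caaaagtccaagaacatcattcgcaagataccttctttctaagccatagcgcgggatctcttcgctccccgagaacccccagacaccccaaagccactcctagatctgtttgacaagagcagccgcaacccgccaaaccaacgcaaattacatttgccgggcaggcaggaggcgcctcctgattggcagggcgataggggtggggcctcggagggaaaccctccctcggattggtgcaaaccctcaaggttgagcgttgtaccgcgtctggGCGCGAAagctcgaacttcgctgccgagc
Rrm1, chr7:102441445-102441744, plus strand: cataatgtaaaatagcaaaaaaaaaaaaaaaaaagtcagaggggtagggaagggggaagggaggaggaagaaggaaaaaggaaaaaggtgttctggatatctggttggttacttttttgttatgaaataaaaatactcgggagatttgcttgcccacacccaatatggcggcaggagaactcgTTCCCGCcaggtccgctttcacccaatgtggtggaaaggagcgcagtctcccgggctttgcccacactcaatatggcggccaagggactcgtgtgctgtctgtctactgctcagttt
Rfc3, chr5:151651159-151651458, minus strand: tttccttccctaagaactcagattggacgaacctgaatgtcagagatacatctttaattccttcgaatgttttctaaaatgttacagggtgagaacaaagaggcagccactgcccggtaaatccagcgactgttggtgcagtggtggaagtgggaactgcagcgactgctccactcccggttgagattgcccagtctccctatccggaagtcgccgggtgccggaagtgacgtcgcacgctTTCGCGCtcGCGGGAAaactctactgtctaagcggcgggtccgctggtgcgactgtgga
Mcm6, chr1:128359656-128359955, minus strand: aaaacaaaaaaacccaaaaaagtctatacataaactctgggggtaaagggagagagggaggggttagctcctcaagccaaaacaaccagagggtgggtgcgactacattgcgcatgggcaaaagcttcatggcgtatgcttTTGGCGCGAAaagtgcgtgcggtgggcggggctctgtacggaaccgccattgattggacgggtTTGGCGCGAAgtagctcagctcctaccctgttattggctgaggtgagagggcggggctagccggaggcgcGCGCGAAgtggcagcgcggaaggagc
Mcm7, chr5:138171834-138172133, minus strand: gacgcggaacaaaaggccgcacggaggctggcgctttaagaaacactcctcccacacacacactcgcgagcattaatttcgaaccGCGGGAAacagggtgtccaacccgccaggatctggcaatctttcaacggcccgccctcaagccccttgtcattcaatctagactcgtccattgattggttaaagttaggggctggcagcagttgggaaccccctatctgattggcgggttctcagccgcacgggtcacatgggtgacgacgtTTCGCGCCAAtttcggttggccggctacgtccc
In Clspn the match began 21 bases after the start, and in Rrm1 67 bases before it (position -67). Rfc3 had 2 matches, at -9 and at the start itself. Mcm6 had 5, of which those at -109 and -106 and those at -46 and -43 overlapped each other as the same 10-base run. The Mcm7 window shown had 3, at -165, 17 and 20, and a further annotated Mcm7 start had 1, at -113.

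Promoters were found for 37 members, 45 windows in all; Pole, Prim2, Gins1, Gins2, Gins4, Rfc2 and Mcm4 had none in the table. An E2F-type core was present in 26 of these 37 members (70.3%; exact 95% interval 53 to 84.1%), against 19.8% of the 9024 tested genes with a promoter and 10.9% of all 27025 genes in the table. Pola1 had 4 matches, Mcm3 and Mcm5 had 3 each, and 12 members had at least 2 in 1 promoter. CCAAT, on either strand, was present in 67.6% of the members (50.2 to 82%), against 43.2% of the tested genes and 41.1% of all genes. TTTGAA, the core of the cell cycle genes homology region, was present in 16.2% of the members (6.19 to 32%), against 14.6% and 20.2%. The members called lower with metformin after PBS held the E2F-type core in 12 of the 14 that had a promoter, and the other members in 14 of 23. Cdc45, Tyms, Tk1, Pcna, Mcm2 and Mcm10 had no match to these letters in their windows. A match describes the sequence and is not a site of binding.

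With vehicle and PBS, 15 of the 44 members averaged at least 50 CPM and 5 averaged under 10 CPM. Per kilobase of exon, Pcna was the most abundant, with 67.1 ± 9.92 CPM per kilobase (SD, n = 4). Mcm3 followed with 27.9 ± 4.47, Rrm2 with 26.3 ± 8.18, Mcm6 with 24.3 ± 4.27, Mcm7 with 24.2 ± 3.35 and Mcm4 with 23.8 ± 2.25 CPM per kilobase, and the ranges of mean ± SD of these 5 genes overlapped. Gins3, a GINS subunit, and Orc1, the large subunit of the origin recognition complex, were lowest, with 1.84 ± 0.317 and 0.918 ± 0.369 CPM per kilobase. At that level Orc1 was represented by 260 counts over all 13 libraries.

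Summed over the 44 genes, the members made 1983 ± 147 CPM with metformin and PM (SD, n = 3), 2274 ± 58.6 CPM with vehicle and PM (n = 3), 1565 ± 42.5 CPM with metformin and PBS (n = 3) and 2047 ± 312 CPM with vehicle and PBS (n = 4). The 3 metformin and PBS libraries lay between 1517 and 1597 CPM, below every other library. The mean of the group was the lowest of the 4 groups in metformin and PBS for 41 members, and the highest in vehicle and PM for 34 members. The shares of all genes with these orders are not given here, so these 2 counts only describe the members. The vehicle and PBS group was the most spread, with sums of 2396, 2073, 2081 and 1637 CPM in libraries 1 to 4. Library 1 was the highest of its group for 34 of the 44 members and library 4 the lowest for 36, so most members were high or low together in animals that had the same treatment. The mitosis list below had the same 2 libraries at its ends, with 2178 CPM in its highest vehicle and PBS library and 1327 CPM in its lowest. Comparisons that use this group are therefore also given without library 1 and without library 4.

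**Figure D1:**
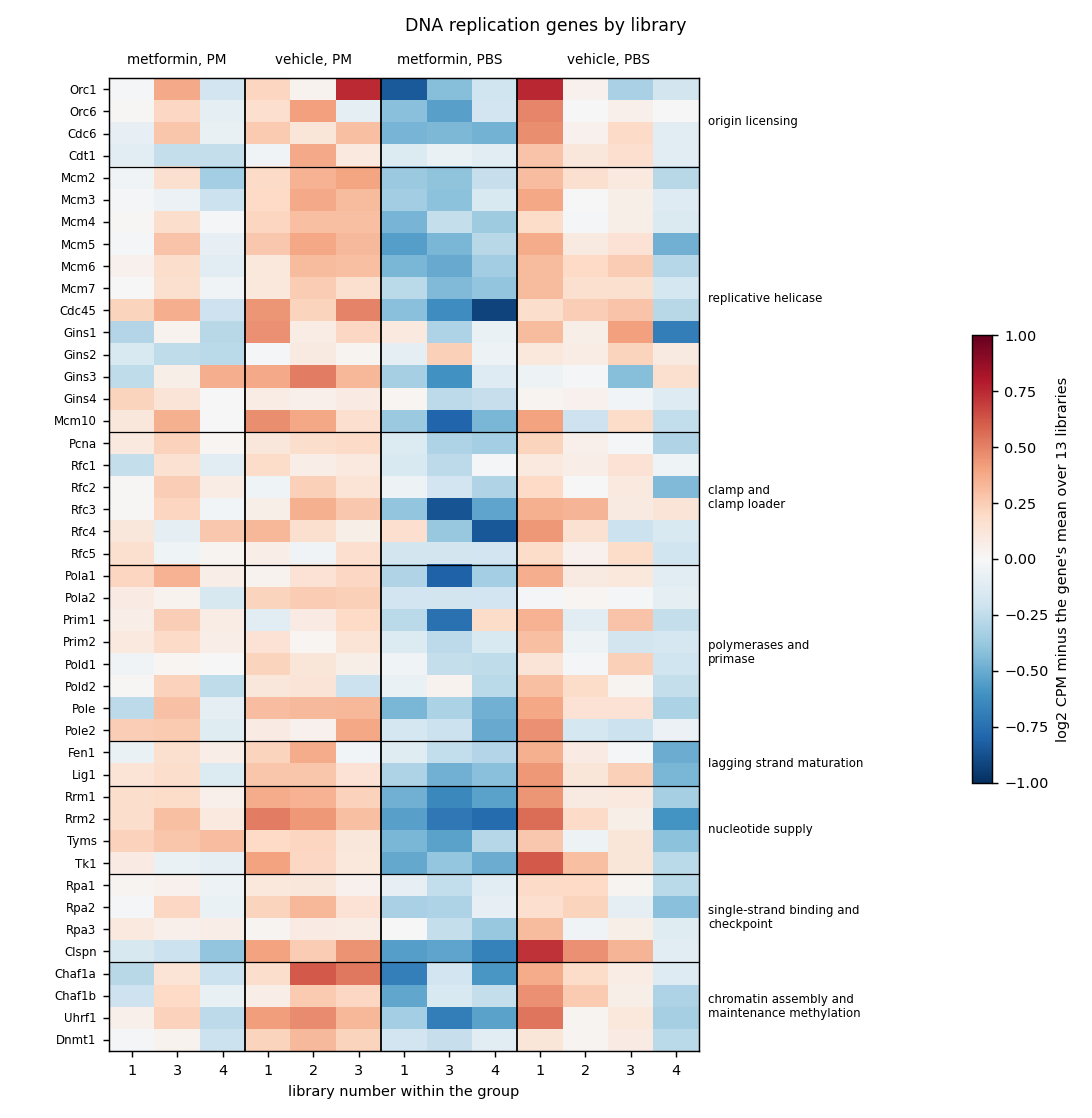
Each row is 1 of the 44 genes, grouped by role, and each column 1 of the 13 libraries, grouped by treatment; colour is log2 CPM minus the mean of that gene over the 13 libraries. The 3 metformin and PBS columns are blue for most genes, the 3 vehicle and PM columns are red for most, and vehicle and PBS libraries 1 and 4 differ from each other across most rows.

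Metformin against vehicle after PBS asked what the drug did without particles. All 44 members had a negative log2 fold change, with a median of -0.40, and 15 fell at an adjusted p under 0.05 (edgeR quasi-likelihood test, Benjamini-Hochberg over 11906 genes; none rose). Among all genes tested 3.07% were called, 1.13% as higher and 1.93% as lower, and the median log2 fold change was 0.00. The members that fell were Clspn, Rfc3, Rrm1, Mcm7, Mcm6, Pola1, Mcm4, Tk1, Rrm2, Cdc45, Uhrf1, Cdc6, Chaf1a, Mcm3 and Lig1. The metformin libraries lay below all vehicle libraries, with no overlap, for 16 members, where 7.54% of all genes did, and above them for none (6.2% of all genes). Without vehicle and PBS library 1, 10 members were called, and without library 4, 25 were, all lower; without metformin and PBS library 4, 7 were. With no filter on low counts, 23 were. Here and below, counts under such alternative settings stand without the share of all genes called in that setting. They show only how far the count of members moved.

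Markers of cell identity were read in the same comparison. Of 16 alveolar macrophage markers 1 was called, the scavenger receptor Marco, which was lower (log2 fold change -1.11 ± 0.17, adjusted p = 0.00245). The list summed to 24390 to 27000 CPM with metformin, against 25490 to 30330 CPM with vehicle. Within it Chil3 alone averaged 14680 CPM with metformin and 17100 CPM with vehicle. Of 9 tested monocyte and monocyte-derived macrophage markers 1 was called, Apoe, which was higher (1.07 ± 0.13, adjusted p = 0.00122). The epithelial list had 1 of 7 called, the cadherin Cdh1, which was lower (-0.44 ± 0.09, adjusted p = 0.0136), with sums of 238 to 290.4 CPM with metformin and 235 to 279.9 CPM with vehicle. None of the 8 tested endothelial and stromal markers and neither of the 2 tested B and plasma cell markers was called. The part of these markers in the result was not tested.

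By role, 3 of the 4 nucleotide enzymes fell, with a median log2 fold change of -0.68. Chromatin assembly and maintenance methylation had 2 of 4 (median -0.54), lagging strand maturation 1 of 2 (Lig1) and the replicative helicase 5 of 12 (median -0.41). Origin licensing had 1 of 4 (Cdc6; median -0.59), single-strand binding and checkpoint 1 of 4 (Clspn; median -0.25), the clamp and clamp loader 1 of 6 (Rfc3; median -0.26) and the polymerases and primase 1 of 8 (Pola1; median -0.28). The 3 subunits of replication protein A (Rpa1, Rpa2, Rpa3), which coat single-stranded DNA, were among those not called, with log2 fold changes no lower than -0.27.

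Clspn (ENSMUSG00000042489, chr4:126556935-126593903, mm10, plus strand) encodes claspin, a fork protein that lets the ATR kinase activate Chk1. It had 13.9, 14.2 and 12.8 CPM with metformin, against 34.2, 28.4, 26.2 and 19.1 CPM with vehicle. The groups did not overlap, and the log2 fold change was -0.99 ± 0.15 (SE; adjusted p = 0.00242), the largest fall among the members. Rrm1 (chr7:102441695-102469771, plus strand) and Rrm2 (chr12:24708241-24714146, plus strand) encode the large and small subunits of ribonucleotide reductase, which makes deoxynucleotides. Rrm1 had 69.7, 62.1 and 67.0 CPM with metformin, against 132, 103, 104 and 77.4 CPM with vehicle, a log2 fold change of -0.66 ± 0.12 (adjusted p = 0.00436). Rrm2 had 46.3, 41.1 and 39.6 CPM with metformin, against 99.7, 77.1, 70.5 and 44.7 CPM with vehicle, a log2 fold change of -0.79 ± 0.17 (adjusted p = 0.0121). Rrm1 did not overlap between the groups, while for Rrm2 vehicle library 4 lay below the highest metformin library. Thymidine kinase Tk1, which salvages thymidine, fell too (log2 fold change -0.70 ± 0.14, adjusted p = 0.0109).

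In the helicase, Mcm6 (chr1:128331590-128359664, minus strand) had 74.7, 72.2 and 80.7 CPM with metformin, against 128, 118, 123 and 84.0 CPM with vehicle (log2 fold change -0.58 ± 0.11, adjusted p = 0.00658). Mcm7 (chr5:138164583-138172422, minus strand) had 81.0, 72.2 and 74.6 CPM with metformin, against 122, 109, 110 and 86.6 CPM with vehicle (-0.50 ± 0.09 on the log2 scale, adjusted p = 0.00496). Mcm4 (chr16:15623897-15637400, minus strand) had 60.6, 71.0 and 65.5 CPM with metformin, against 95.3, 83.4, 87.2 and 75.9 CPM with vehicle (-0.38 ± 0.08, adjusted p = 0.0104). These are subunits of 1 hexameric ring, and for each of them every metformin library was below every vehicle library. Mcm3 (chr1:20802968-20820312, minus strand) had 77.1, 74.1 and 88.7 CPM with metformin, against 129, 98.2, 102 and 89.9 CPM with vehicle (-0.39 ± 0.10, adjusted p = 0.0342). Mcm2 (chr6:88883475-88898780, minus strand) had 52.7, 51.6 and 58.1 CPM with metformin, against 84.7, 76.3, 73.0 and 56.5 CPM with vehicle. Its log2 fold change of -0.43 ± 0.12 did not pass (adjusted p = 0.0546), and vehicle library 4 lay inside the metformin range. Cdc45 (chr16:18780447-18811987, minus strand), which joins the ring when an origin fires, had 11.95, 10.35 and 8.32 CPM with metformin, against 18.2, 19.1, 19.6 and 13.2 CPM with vehicle (-0.79 ± 0.17, adjusted p = 0.0136).

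Rfc3 (chr5:151642756-151651242, minus strand), a subunit of the clamp loader, had 9.82, 7.01 and 8.93 CPM with metformin, against 16.8, 16.6, 13.9 and 14.3 CPM with vehicle. It was the exception among the 5 loader subunits, with a log2 fold change of -0.84 ± 0.14 (adjusted p = 0.00332), while Rfc1, Rfc2, Rfc4 and Rfc5 were not called. Pcna (chr2:132249162-132253314, minus strand), the clamp, had 146, 129 and 127 CPM with metformin, against 188, 167, 159 and 130 CPM with vehicle. The groups overlapped and the log2 fold change of -0.26 ± 0.09 did not pass (adjusted p = 0.120). Pola1 (chrX:93304767-93632155, minus strand), the catalytic subunit of the primer-extending polymerase alpha, had 28.2, 19.8 and 27.4 CPM with metformin, against 45.0, 37.0, 37.5 and 32.3 CPM with vehicle (-0.60 ± 0.12, adjusted p = 0.0103). Chaf1a (chr17:56040416-56068026, plus strand), the large subunit of the histone chaperone CAF-1, had 18.5, 26.1 and 19.9 CPM with metformin, against 38.8, 34.0, 31.6 and 27.3 CPM with vehicle (-0.62 ± 0.15, adjusted p = 0.0251). Its value is uncertain, since 4648 of its 8854 exonic bases overlap Ubxn6 on the opposite strand and the counting was not stated to use strand. Exonic overlaps exist for 12 further members. Among them are Fen1 (2039 of 2422 bases, summed over Gm10143 and Tmem258), Gins2 (2758 of 4097 bases with Gse1), Mcm7 (557 of 4426) and Cdc45 (209 of 3506).

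**Figure D2:**
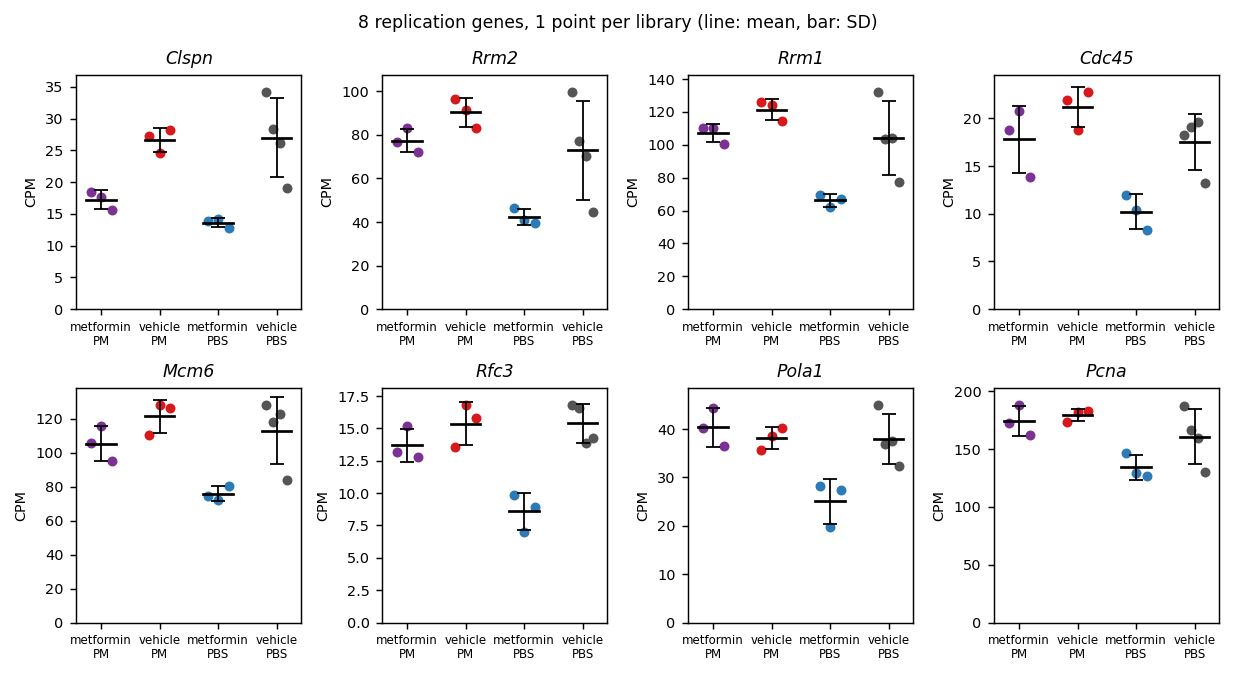
CPM of 8 members, 1 point per library, in the 4 groups (metformin and PM, vehicle and PM, metformin and PBS, vehicle and PBS); horizontal lines are group means and bars the SD (n = 3, 3, 3 and 4). In each panel the metformin and PBS group has the lowest mean, and for Clspn the metformin and PM libraries (15.6 to 18.4 CPM) also lie below both vehicle groups.

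PM against PBS in animals on metformin asked what the particles did under the drug. Here 16 members rose and 1 fell, against 12.8% of all genes tested called, 7.18% as higher and 5.6% as lower. The median log2 fold change of the members was 0.38 (0.00 for all genes tested), and 41 of 44 were positive. The members that rose were Rrm1, Pola1, Tyms, Rrm2, Mcm4, Cdc45, Rfc3, Mcm7, Mcm6, Mcm10, Pcna, Mcm5, Uhrf1, Cdc6, Lig1 and Gins4, and Gins2 fell. All PM libraries were above all PBS libraries for 30 members (16.1% of all genes) and below them for 1 (13.9% of all genes). Without metformin and PBS library 3 the count of members called was 9, and without metformin and PM library 3 it was 7, all higher. The 15 members lower with metformin after PBS and the 16 higher with PM on metformin had 11 in common, but both comparisons use the same 3 metformin and PBS libraries, so this overlap is no separate result.

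Nucleotide supply was again the role with the highest share, 3 of 4 (median log2 fold change 0.70). Rrm2 had 76.6, 83.2 and 72.4 CPM with PM, against 46.3, 41.1 and 39.6 CPM with PBS, a log2 fold change of 0.87 ± 0.17 (adjusted p = 0.00202). Rrm1 had 110, 110 and 101 CPM with PM, against 69.7, 62.1 and 67.0 CPM with PBS (0.69 ± 0.12 on the log2 scale, adjusted p = 0.000702). Tyms (chr5:30058202-30073617, minus strand), thymidylate synthase, had 21.1, 21.8 and 22.3 CPM with PM, against 12.9, 12.3 and 14.6 CPM with PBS (0.71 ± 0.14, adjusted p = 0.00169). None of these 3 genes overlapped between the groups. Tk1 had 38.85, 35.03 and 34.24 CPM with PM, against 25.7, 28.03 and 25.88 CPM with PBS, with no overlap, but did not pass the test.

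The helicase role had 7 of 12 members that rose. Cdc45 had 18.7, 20.8 and 13.9 CPM with PM, against 11.95, 10.35 and 8.32 CPM with PBS (log2 fold change 0.82 ± 0.17, adjusted p = 0.00377). Mcm10, a factor that helps the helicase start, rose by 0.72 ± 0.17 on the log2 scale (adjusted p = 0.00921). Mcm4 had 84.4, 94.7 and 83.0 CPM with PM, against 60.6, 71.0 and 65.5 CPM with PBS (0.41 ± 0.08, adjusted p = 0.00211). Mcm6 (0.48 ± 0.12, adjusted p = 0.00921) and Mcm7 (0.41 ± 0.09, adjusted p = 0.00601) rose by like amounts. Gins2 had 45.3, 42.2 and 41.7 CPM with PM, against 47.1, 59.4 and 48.7 CPM with PBS (-0.26 ± 0.08, adjusted p = 0.0461). Gins4, the other GINS subunit called, had the opposite sign (0.28 ± 0.09, adjusted p = 0.0479). Both calls were close to the threshold: of 12 alternative settings, Gins2 lost its call in 7, DESeq2 and the replicate block among them, and Gins4 in 8, DESeq2 among them. Most exonic bases of Gins2 are those shared with Gse1.

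Rfc3 had 13.2, 15.2 and 12.8 CPM with PM, against 9.82, 7.01 and 8.93 CPM with PBS (log2 fold change 0.68 ± 0.15, adjusted p = 0.00481). Pcna had 172, 188 and 163 CPM with PM, against 146, 129 and 127 CPM with PBS (0.38 ± 0.09, adjusted p = 0.0109). Pola1 had 40.3, 44.3 and 36.4 CPM with PM, against 28.2, 19.8 and 27.4 CPM with PBS (0.69 ± 0.13, adjusted p = 0.00114). In these 3 genes every PM library was above every PBS library. Uhrf1, which guides maintenance methylation to new DNA, also rose, by 0.55 ± 0.16 (adjusted p = 0.0272). Clspn did not pass here: it had 18.4, 17.7 and 15.6 CPM with PM, against 13.9, 14.2 and 12.8 CPM with PBS. In the same comparison the endothelial and stromal markers summed to 29.7 to 52.8 CPM with PM, against 12.01 to 19.43 CPM with PBS, and 4 of 8 tested rose. Of 7 tested epithelial markers, the surfactant genes Sftpa1 (log2 fold change 1.51 ± 0.33), Sftpc (1.23 ± 0.27) and Sftpb (1.26 ± 0.33) rose and Epcam fell (-0.42 ± 0.12). The list summed to 257 to 297 CPM with PM, against 238 to 290.4 CPM with PBS. Most of that sum was Epcam (mean 104 CPM with PM, 139.6 CPM with PBS) and Cdh1 (82.59 and 74.84 CPM). Sftpc averaged 46.64 CPM with PM and 19.59 CPM with PBS. Both tested B and plasma cell markers rose, Jchain by 3.88 ± 0.88 and Igkc by 2.94 ± 0.76 on the log2 scale, in a list of 8 that summed to 2.96 to 8.56 CPM with PM, against 1.69 to 3.66 CPM with PBS. Pf4 rose by 2.07 ± 0.35. It was the 1 tested gene of 8 erythroid and platelet markers, of which 6 lay under 1 CPM in every library. Of the 9 tested monocyte markers 3 rose, Mmp14 (log2 fold change 4.42 ± 0.40), Mmp12 (2.39 ± 0.28) and Itgam (1.67 ± 0.195). Apoe fell (-1.10 ± 0.14). Of the 16 alveolar macrophage markers 6 rose and 5 fell. The part of all these markers in the result was not tested.

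PM against PBS in animals on vehicle water, the plain particle effect, gave no call for any of the 44 members, where 4.85% of all genes tested were called (2.6% as higher, 2.26% as lower). At an unadjusted p under 0.05, 7 members were higher and none lower. Of the 11906 genes tested, 966 were higher and 1017 lower at that level. DESeq2 called 1 member, Dnmt1. With no filter on low counts 7 members were called, all higher. The log2 fold changes were small and mostly positive (38 of 44; median 0.12, against 0.00 for all genes tested). Pola2, the second subunit of polymerase alpha, came nearest, with 36.4, 37.2 and 36.7 CPM with PM, against 30.7, 31.7, 30.8 and 29.3 CPM with PBS (log2 fold change 0.26 ± 0.08, adjusted p = 0.0509). Dnmt1 (0.26 ± 0.08, adjusted p = 0.0628) and Mcm4 (0.25 ± 0.07, adjusted p = 0.0650) followed. Pola2, Dnmt1, Mcm4, Gins3 and Gins4 were above all PBS libraries in every PM library, which 7.33% of all genes were, and no member was below them all (7.6% of all genes). Rrm2 had 96.6, 91.3 and 83.2 CPM with PM, against 99.7, 77.1, 70.5 and 44.7 CPM with PBS, so that the groups overlapped through PBS library 1 alone. Without vehicle and PBS library 1, 6 members were called, all higher, and the median log2 fold change was 0.24; without library 4 there were 0 and the median was 0.05. The count in this comparison therefore depended on the filter and on which vehicle and PBS libraries were in the fit. In the same comparison 4 of 9 tested monocyte markers rose and 1 fell. Those that rose were Mmp14 (log2 fold change 4.71 ± 0.40), Mmp12 (1.635 ± 0.25), Itgam (1.36 ± 0.17) and Csf1r (0.40 ± 0.06). Of the 9, 4 had a negative log2 fold change, the lowest being -0.397. Among the markers with lower means, Fcgr4 averaged 81.06 CPM with PM, against 106.7 CPM with PBS, and Ccr2 7.215 against 8.257 CPM. Of the 16 alveolar macrophage markers 3 rose, among them Car4 (1.11 ± 0.08), and 6 fell, among them Ear1 (-0.56 ± 0.06). Pf4, Igkc and Jchain rose, and none of the epithelial, endothelial and stromal markers was called. The part of all these markers in the comparison was not tested.

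Metformin against vehicle after PM asked what the drug did to particle-exposed cells. Of the members 5 fell and none rose, against 6.89% of all genes tested called (4.08% as higher, 2.81% as lower), and the median log2 fold change was -0.18 (0.00 for all genes tested). Clspn had 18.4, 17.7 and 15.6 CPM with metformin, against 27.3, 24.6 and 28.1 CPM with vehicle (log2 fold change -0.62 ± 0.15, adjusted p = 0.0129). Chaf1a had 24.58, 32.99 and 25.68 CPM with metformin, against 33.9, 45.87 and 43.25 CPM with vehicle (-0.56 ± 0.14, adjusted p = 0.0220). Mcm3 had 97.2, 94.5 and 84.5 CPM with metformin, against 113, 128 and 123 CPM with vehicle (-0.39 ± 0.10, adjusted p = 0.0220). In each of these genes every metformin library lay below every vehicle library. Dnmt1 (chr9:20907206-20959888, minus strand), which copies methylation marks to the new strand, had 154, 159 and 134 CPM with metformin, against 181, 195 and 181 CPM with vehicle (-0.32 ± 0.08, adjusted p = 0.0250). Cdt1 (chr8:122568015-122573128, plus strand), which loads the MCM ring with Cdc6, had 38.9, 35.4 and 35.5 CPM with metformin, against 40.8, 54.4 and 44.7 CPM with vehicle (-0.35 ± 0.10, adjusted p = 0.0487). The Cdt1 call was lost in 7 of 12 alternative settings, DESeq2 and the replicate block among them.

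The 4 nucleotide enzymes, of which 3 fell with metformin after PBS, were not called after PM. Rrm1 had 110, 110 and 101 CPM with metformin and PM, against 126, 124 and 114 CPM with vehicle and PM, and Tyms had 21.1, 21.8 and 22.3 CPM, against 20.6, 20.8 and 19.4 CPM. Pcna had 172, 188 and 163 CPM with metformin and PM, against 174, 182 and 183 CPM with vehicle and PM, with overlap. The metformin libraries lay below all vehicle libraries for 16 members (13.1% of all genes) and above them for 1 (13.4% of all genes). The count of calls depended on single libraries: 0 members were called without metformin and PM library 4, 1 without vehicle and PM library 2, and 2 without vehicle and PM library 3 or without metformin and PM library 1. With the replicate block it was 1, and with only the 2 groups in the fit, or with no filter on low counts, it was 8. Endothelial and stromal markers moved with this comparison, at 29.7 to 52.8 CPM with metformin and 11.2 to 31.7 CPM with vehicle (Col1a1, Pecam1 and Col1a2 called higher). Of the epithelial markers Ager was called higher, and of the alveolar macrophage markers Cidec and Plet1 were called higher and Car4 lower. The part of these markers in it was not tested.

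**Figure D3:**
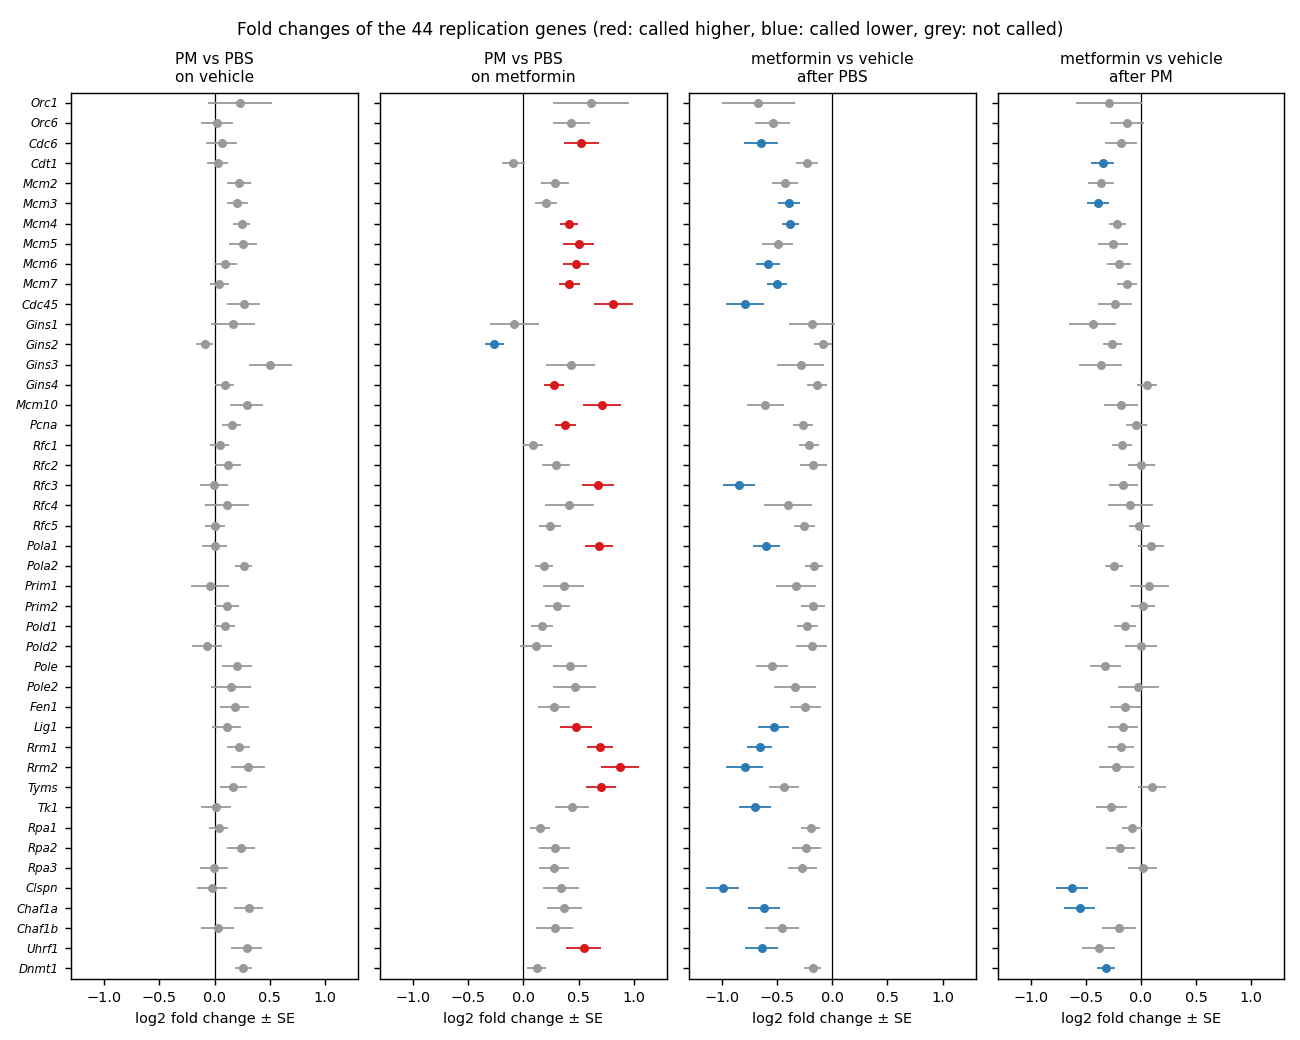
Log2 fold changes with SE of the 44 members in the 4 simple comparisons; red marks members called higher, blue those called lower and grey those not called at an adjusted p of 0.05. The counts called are 0 for PM on vehicle, 17 for PM on metformin (16 higher), 15 for metformin after PBS and 5 for metformin after PM.

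Whether the particle effect differed between metformin and vehicle animals was tested as the difference of the log2 fold changes. Pola1 was the member called, and 1.44% of all genes tested were (0.89% as higher). Its PM effect was 0.69 ± 0.13 on metformin and 0.00 ± 0.11 on vehicle, a difference of 0.69 ± 0.17 (adjusted p = 0.0490). That call was lost in 12 of 18 alternative settings, with an adjusted p of up to 0.149. The other 43 members did not pass, and the median difference over all 44 was 0.24. Of all 44, Pola1 included, 10 had an unadjusted p under 0.05, all positive. Of the 11906 genes tested, 749 were higher and 631 lower at that level. Apart from Pola1, whose call was fragile, the calls that PM on metformin had and PM on vehicle had not are therefore not shown to differ between the drinking waters. Without vehicle and PBS library 4, 6 members were called in this difference, and without library 1 none were; with no filter on low counts 5 were.

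Averaged over the other factor, which uses all 13 libraries, 21 members were higher with PM and 1 was lower (Gins2), where 16.4% of all genes were called (8.63% as higher, 7.76% as lower). The median log2 fold change was 0.24. This count of 22 was 11 without metformin and PM library 3, 13 without metformin and PBS library 3 and 13 without vehicle and PM library 2; it was 30 without vehicle and PBS library 1 and 17 without vehicle and PBS library 4. The Gins2 call was lost in 9 of 18 alternative settings, DESeq2 among them. With metformin 21 members were lower and none higher, where 10.8% of all genes were called (5.41% as lower), and the log2 fold change of all 44 was negative (median -0.31). Without vehicle and PBS library 1 the count was 19, and without library 4 it was 31. Clspn had the largest averaged metformin effect of the members, -0.81 ± 0.11 (adjusted p = 0.000139), and Rrm2 the largest averaged PM effect, 0.59 ± 0.11 (adjusted p = 0.00127). Mcm2 passed in both averaged comparisons (metformin -0.40 ± 0.08, adjusted p = 0.00451; PM 0.25 ± 0.08, adjusted p = 0.0440), though in no simple one. Its metformin call held in all 18 alternative settings run, while its PM call was lost in 11 of them, the replicate block among them, with an adjusted p of up to 0.163.

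In the 4 simple comparisons 23 members were called at least once and 21 never. The share of all genes called at least once is not given here, so these counts only sort the members. In none of the 7 comparisons were 17 called: Orc1, Orc6, Gins1, Rfc1, Rfc2, Rfc4, Rfc5, Prim1, Prim2, Pold1, Pold2, Pole2, Fen1, Rpa1, Rpa2, Rpa3 and Chaf1b. This set holds both primase subunits, which lay the RNA primer, the polymerase delta subunits and all 3 subunits of replication protein A. It also holds the flap nuclease Fen1, whose exonic overlap is given above. Rpa1 had 97.3, 98.5 and 92.3 CPM with metformin and PM, 103, 104 and 98.2 CPM with vehicle and PM, 90.4, 80.4 and 88.7 CPM with metformin and PBS, and 109, 110, 97.3 and 79.1 CPM with vehicle and PBS. Its groups overlapped in part, and a miss at this number of animals does not show that its level was the same.

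Other genes of the cell cycle, from lists that do not share members with the 44, were read in the same way, beside the shares over all genes tested: 1.93% lower with metformin after PBS, 7.18% higher and 5.6% lower with PM on metformin, 2.81% lower with metformin after PM, and 2.6% higher with PM on vehicle. Of 38 further replication genes, 5 fell with metformin after PBS (Top2a, Hells, Wdhd1 and Topbp1 with the lowest p), 6 rose with PM on metformin and 4 fell with metformin after PM. Those 4 were Tipin (log2 fold change -0.79 ± 0.16, adjusted p = 0.00515), Timeless (-0.64 ± 0.17, adjusted p = 0.0290), Wdhd1 (-0.50 ± 0.14, adjusted p = 0.0296) and Atad5 (-0.55 ± 0.16, adjusted p = 0.0434). Tipin and Timeless form the fork protection complex with which claspin works. Of 29 further nucleotide genes, those that fell with metformin after PBS included the folate enzyme Mthfd2 and the dUTPase Dut. With PM on metformin 5 of them rose and 2 fell, among them Samhd1, which breaks down deoxynucleotides (-0.38 ± 0.06, adjusted p = 0.000246). With PM on vehicle, 1 of these 29 was called, Mthfd2 (0.37 ± 0.08, adjusted p = 0.00753), which is near the share over all genes.

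Of 40 mitosis genes, 32 fell with metformin after PBS (median log2 fold change -0.78), 29 rose with PM on metformin (median 0.65), 2 fell with metformin after PM (Bub1b and Plk1) and 1 rose with PM on vehicle (Bub1b). The counts with metformin after PM and with PM on vehicle are near the shares over all genes. Their sums were 1550 to 1708 CPM with metformin and PM, 1868 to 1948 CPM with vehicle and PM, 1103 to 1129 CPM with metformin and PBS, and 1327 to 2178 CPM with vehicle and PBS. Ect2, a regulator of cytokinesis, was the mitosis gene called in the difference of the PM effects (1.04 ± 0.19, adjusted p = 0.00709). The group means of the mitosis sums stood in the same order as for the 44 members. Of 33 tested regulators of the G1 to S passage, 7 fell with metformin after PBS and 10 rose with PM on metformin, in both cases with Ccna2, E2f7 and E2f8 among those of lowest p. Myc was the 1 gene of these 33 called with PM on vehicle, also near that share, and it rose (0.82 ± 0.15, adjusted p = 0.00204). Of 32 genes of DNA damage and repair, 2 rose with PM on vehicle, Gadd45b (1.06 ± 0.17, adjusted p = 0.000562) and Gadd45a (0.91 ± 0.20, adjusted p = 0.00811), and 4 fell with metformin after PBS (Fancd2, Blm, Brca1 and Bard1).

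**Figure D4:**
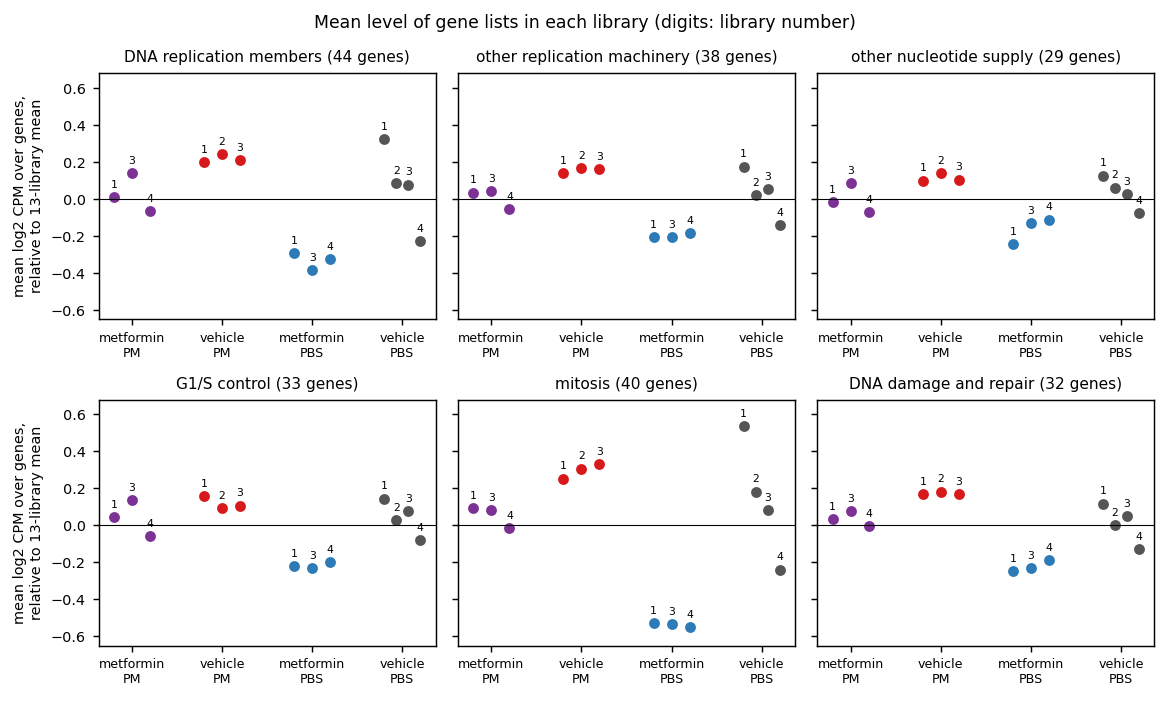
Mean log2 CPM over the genes of 6 lists in each library, relative to the mean over the 13 libraries; points are libraries and digits their numbers. In each of the 6 lists the metformin and PBS libraries lie below all others. In each list the vehicle and PBS libraries spread from number 1 at the top to number 4 at the bottom.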

How the data were processed

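Single-end reads of 75 bases were made from polyadenylated RNA (100 ng of total RNA per library), per the labels' protocols. Reads were demultiplexed with bcl2fastq 2.19, aligned to mm10 with TopHat2 and counted per gene with HTSeq, per the submitters' processing notes; annotation release and strand setting are not given in the sources used here. The deposited table holds raw read counts, the unit "count", for 43430 genes. Its start and end columns (the deposited unit "other") gave positions, and exon lengths came from GENCODE M21, because the deposited length exceeds the gene's span in 1982 genes.

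From these counts, edgeR 4.0.16 (R 4.3.3) was run with filterByExpr (11906 genes kept), TMM scaling, 1 coefficient per group (9 residual degrees of freedom, common biological coefficient of variation 0.0635) and quasi-likelihood tests for 7 comparisons. P values were adjusted with Benjamini-Hochberg over all genes within a comparison; "called" means an adjusted p under 0.05, and an SE is the log2 fold change over the square root of F. CPM are TMM-scaled. Alternatives were DESeq2 1.42.0, DESeq2 size factors, no filter, over 5 CPM in 3 libraries, only the groups compared, a replicate block, and leaving out each library. The steps were tested on simulated data. Libraries of a group correlated at r = 0.9873 to 0.9924 (log2 CPM, prior count 2), and none was a copy of another. Intervals on shares of promoters are exact binomial and cover counting error alone.

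The members and gene lists were chosen with earlier results of these data known. Full values are given for the 12 called members with the lowest adjusted p, and for Pcna, Mcm2, Rrm2 and Clspn; of the other lists, up to 4 called genes per comparison. A gene of the nucleotide list is not reported here. Figures used Python 3.11.15 and Matplotlib 3.10.9.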

Additional observations from a re-analysis of the deposited data

Results flagged for a closer look

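Orc6, the smallest subunit of the origin recognition complex, had 1 vehicle and PBS library apart from its group: 20.9 CPM in library 1, against 14.7, 15.3 and 14.8 CPM in libraries 2, 3 and 4. The gap to the nearest library was 0.906 of the group's range, above the critical value of Dixon's test for 4 samples. It was 1 of 44 members tested in this way, and chance flags about 1 group in 20.

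Pola1 had a larger PM effect on metformin than on vehicle, a difference of 0.6875 on the log2 scale with an adjusted p of 0.04898. Its PM libraries had 40.3, 44.3 and 36.4 CPM on metformin and 35.6, 38.6 and 40.2 CPM on vehicle, and its PBS libraries had 28.2, 19.8 and 27.4 CPM on metformin and 45.0, 37.0, 37.5 and 32.3 CPM on vehicle. The adjusted p lay just under the threshold.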

How the results depend on the processing

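Under the alternatives run, no member median changed sign or moved by more than the SD between libraries (0.141 on the log2 scale), and no called member reversed. Counts of members called moved more, and they are given without the share of all genes called in the same setting. For PM on vehicle (0 called) there were 1 with DESeq2 size factors, 1 with DESeq2, 7 without a filter on low counts, 1 with over 5 CPM in 3 libraries, and 0 to 6 when leaving out 1 library. For PM on metformin (17) leaving out 1 library gave 7 to 17. For metformin after PBS (15) there were 23 without a filter and 7 to 25 leaving out 1 library. For metformin after PM (5) there were 8 without a filter, 8 with only the groups compared, 1 with the replicate block, and 0 to 6 leaving out 1 library. For the difference (1) there were 0 with DESeq2 size factors, 5 without a filter, 0 with the replicate block, and 0 to 6 leaving out 1 library. For PM averaged (22) leaving out 1 library gave 11 to 30: 13 without metformin and PBS library 3, 13 without vehicle and PM library 2 and 11 without metformin and PM library 3. For metformin averaged (21) it gave 18 to 31. The cause was not tested. The replicate numbers of the titles were not shown to pair libraries. Deviations of same-numbered libraries of different groups correlated between -0.102 and 0.116 (median -0.00164, 16 pairs). Those of differently numbered libraries correlated between -0.143 and 0.141 (median -0.00523, 47 pairs). Of 13 libraries, 6 correlated best with their own number, which was not set against a chance count. In the other comparisons the replicate block gave 14 for metformin after PBS, 17 for PM on metformin and 15 for metformin averaged. Called in every setting were Cdc45, Mcm4, Pola1, Rfc3, Rrm1, Rrm2 and Tyms for PM on metformin, Clspn, Mcm6, Mcm7, Rfc3 and Rrm1 for metformin after PBS, and none for metformin after PM or the difference. A shorter promoter window (150 bases before the start) held the E2F-type core in 67.6% of the members. Members with few counts, such as Orc1 and Gins3, could be compared with little precision at this depth.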
